A study of Homo sapiens with 4 samples.

Results

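The genes described here are those of glucose sensing through MondoA in HCT116, a cell line from a human colon cancer, after knockdown of the splicing factor RBM25. They are 10 of the 58735 genes in the deposited count tables: the transcription factor genes MLXIP, MLXIPL and MLX, the alpha-arrestin genes ARRDC4, TXNIP, ARRDC3, ARRDC2 and ARRDC1, and the glucose transporter genes SLC2A1 and SLC2A3. The set was chosen by name, as a pathway, and with values of these libraries known: ARRDC4 had already been seen among the largest decreases after RBM25 knockdown. The comparison of RBM25_sh with control_sh is therefore a description for these 10 genes, and no p-value is given for any of them. Of the 10, 9 passed the filter on low counts and TXNIP did not.

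The study compared HCT116 cells given an shRNA against RBM25 (RBM25_sh, 2 libraries) with HCT116 cells given a control shRNA (control_sh, 2 libraries). RBM25 encodes an RNA-binding protein that takes part in the choice of splice sites. The sources used here do not give the hairpin sequences, their number, how they were delivered or when cells were harvested. The labels do not tie the replicates to separate cultures, and the spread between them, on which every error and p-value rests, may be technical.

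MondoA, the product of MLXIP, and its relative ChREBP, the product of MLXIPL, are transcription factors that pair with MLX and bind carbohydrate response elements, in which a pair of E-box-like hexamers is separated by a short gap. They become active when glucose is phosphorylated after it enters the cell. TXNIP and ARRDC4 are well known targets of MondoA, and their protein products lower glucose uptake, in the case of TXNIP by promoting the removal of the transporter GLUT1 from the cell surface. GLUT1, encoded by SLC2A1, carries glucose into most cell types, and colon cancers often express it strongly.

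The promoters of ARRDC4 and TXNIP are shown because these are the classical MondoA targets and because one was well measured here and the other almost not at all. Each stretch runs from 250 bases before to 50 bases after the RefSeq gene start, on the gene's own strand. Capitals mark an E-box (CACGTG) or the hexamers of a paired element, which was searched as CACGNG and CNCGNG with 5 bases between them, on both strands. The ARRDC4 sequence lies at chr15:97960453-97960752 on the plus strand and the TXNIP sequence at chr1:145996530-145996829 on the minus strand, both of GRCh38.p14.
ARRDC4: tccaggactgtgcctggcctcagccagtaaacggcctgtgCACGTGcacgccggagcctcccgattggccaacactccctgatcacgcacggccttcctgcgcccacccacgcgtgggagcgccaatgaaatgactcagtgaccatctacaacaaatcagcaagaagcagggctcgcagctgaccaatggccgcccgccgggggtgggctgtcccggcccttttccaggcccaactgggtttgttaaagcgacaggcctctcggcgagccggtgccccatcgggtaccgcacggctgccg
TXNIP: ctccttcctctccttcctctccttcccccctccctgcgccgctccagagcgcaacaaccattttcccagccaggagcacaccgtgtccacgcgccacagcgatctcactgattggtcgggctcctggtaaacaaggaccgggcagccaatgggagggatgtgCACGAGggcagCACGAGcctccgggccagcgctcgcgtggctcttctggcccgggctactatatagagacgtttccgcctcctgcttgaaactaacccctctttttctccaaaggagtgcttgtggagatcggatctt

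The TXNIP promoter held the only paired element found in these windows for the 9 members with a RefSeq entry. This was in the first of its 2 RefSeq entries. It began 88 bases before the gene start, and 0.501% of all 35116 promoters of the same length held such an element. The ARRDC4 window held an E-box 210 bases before the start and no paired element within its 300 bases. The MLX promoter also held an E-box, 50 bases before its start, and 7.26% of all promoters had at least 1. These matches describe letters in a short window and say nothing of binding in these cells.

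The libraries held between 15528274 and 16982663 counts. RBM25 had 44.0 and 35.7 CPM in the RBM25_sh libraries against 155.3 and 114.9 CPM in the control_sh libraries, where CPM is the count scaled to library size after TMM normalization (log2 fold change −1.76 ± 0.30, edgeR adjusted p = 0.0195). Without RBM25_sh replicate 1 the log2 fold change of RBM25 was −1.90 (edgeR adjusted p = 0.119), and without RBM25_sh replicate 2 it was −1.58 (edgeR adjusted p = 0.202). Of the 10 epithelial markers 9 were measured in every library, while VIL1 was at or near 0, and CLDN7 was called lower in RBM25_sh. Of 16 markers of other cell types CD3E, CDH5, COL1A2 and INS had no count, and their summed level was 42.7 and 56.1 CPM in RBM25_sh and 48.5 and 72.6 CPM in control_sh. Without COL1A1 that sum was 5.63 and 9.11 CPM in RBM25_sh and 9.42 and 10.7 CPM in control_sh, and none of the 4 that passed the filter was called. The lowest of these 4 in p-value was ACTA2, a smooth muscle actin gene, with 0.603 and 1.02 CPM in RBM25_sh and 3.23 and 4.02 CPM in control_sh (log2 fold change −2.14 ± 0.49, edgeR adjusted p = 0.0501), which was called with the GC correction described further on (edgeR adjusted p = 0.00678). ACTA2 was singled out after its values were seen, and its part in the results was not tested. The epithelial markers summed to 4639 and 5817 CPM in RBM25_sh and 3793 and 4885 CPM in control_sh.

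Across all 16091 genes tested, 491 were called at an edgeR adjusted p of 0.05, which is 3.05% of them, with 0.653% called higher and 2.40% called lower in RBM25_sh. Of the 9 members tested, 3 were called: SLC2A1 was higher, and ARRDC4 and MLXIPL were lower. The CPM of the groups did not overlap in 7 of the 9, against 51.8% of all genes tested. Because the members were picked with this contrast in view, nothing is read from these counts. For the same reason the calls and intervals of single members are descriptions only.

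**Figure D1:**
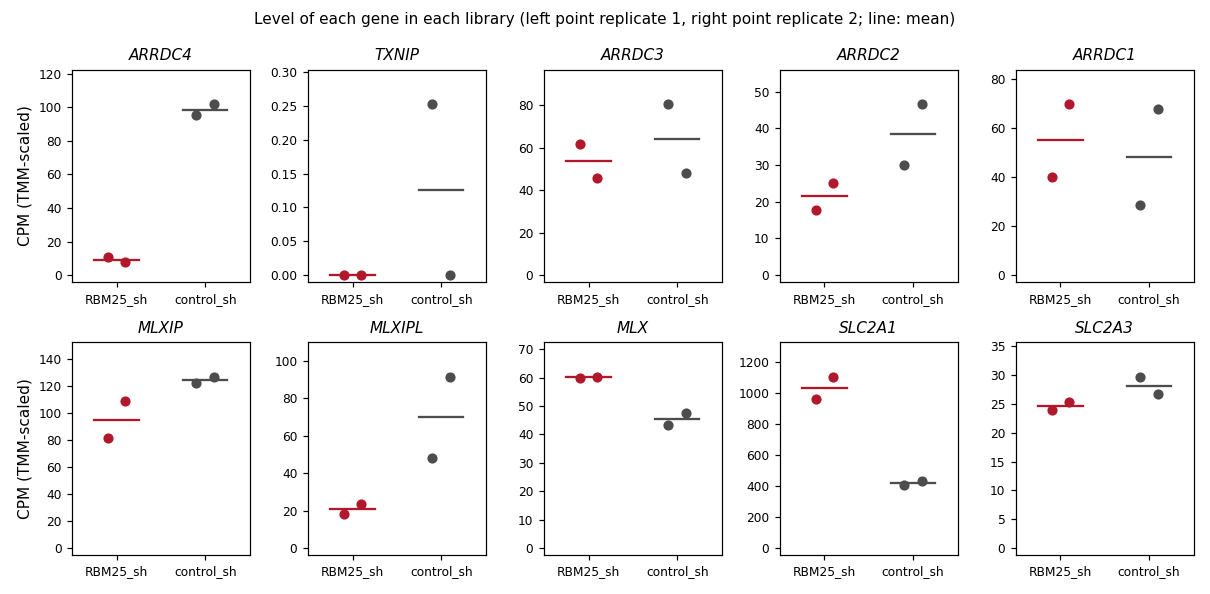
CPM of each of the 10 genes in each library, on a linear axis from 0, with RBM25_sh (red) left of control_sh (grey) and a line at the mean of each pair. ARRDC4 and MLXIPL lie lower and SLC2A1 higher in both RBM25_sh libraries, and TXNIP is at 0 in all libraries but control_sh replicate 1.

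ARRDC4 had the largest fitted fold change of the 9 genes measured, and TXNIP, the other well known MondoA target here, was nearly undetected in either group. In bulk RNA, fewer cells expressing a gene and less RNA per cell cannot be told apart. ARRDC4 (ENSG00000140450, GRCh38 chromosome 15, 97960698 to 97973838, plus strand) encodes an alpha-arrestin, an adaptor that links membrane proteins to ubiquitin ligases. It had 162 and 122 counts in the RBM25_sh libraries and 1508 and 1829 counts in the control_sh libraries. In CPM this was 10.9 and 7.77 in RBM25_sh against 95.4 and 102.0 in control_sh. Both RBM25_sh libraries lay far below both control_sh libraries, and the ratio of any control_sh library to any RBM25_sh library was between 8.79 and 13.1. The mean was 9.31 ± 2.18 CPM in RBM25_sh and 98.7 ± 4.71 CPM in control_sh (SD, n = 2 each). The fitted log2 fold change was −3.41 ± 0.31 (SE), a 10.6-fold lower level with a 95% interval of 6.50 to 17.3, and 80 of the 16091 genes had a lower log2 fold change. ARRDC4 kept its call in each of the alternatives tried, with log2 fold changes between −3.65 and −2.91. No annotated gene overlaps it, and none of the 4023 stretches of 50 bases in its longest GENCODE transcript occurs in a transcript of another gene.

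TXNIP (ENSG00000265972, chromosome 1, 145992435 to 145996600, minus strand) encodes the thioredoxin-interacting protein, which also binds thioredoxin. It had 0 and 0 counts in the RBM25_sh libraries and 4 and 0 counts in the control_sh libraries. A count of 0 allows up to 3 counts, which is 0.201 and 0.191 CPM in RBM25_sh replicates 1 and 2 and 0.167 CPM in control_sh replicate 2, and these limits cover counting error only. The 4 counts of control_sh replicate 1 came to 0.253 CPM, so no fold change is given. None of the 2877 stretches of 50 bases in the longest TXNIP transcript occurs in a GENCODE transcript of another gene. No annotated gene overlaps TXNIP. Genome sequence outside annotated transcripts was not searched. Whether reads of TXNIP were lost in alignment or counting was not tested.

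None of the other 3 alpha-arrestins was called, and the groups overlapped in ARRDC3 and ARRDC1. ARRDC3 (chromosome 5, 91368724 to 91383359, minus strand), whose product takes part in the trafficking of beta-adrenergic receptors, had 62.0 and 45.7 CPM in RBM25_sh and 80.7 and 47.9 CPM in control_sh. Its groups overlapped, and the log2 fold change was −0.25 ± 0.33 with a 95% interval of −0.99 to 0.48. Without control_sh replicate 1 the value was 0.18, on the other side of 0. ARRDC1 (chromosome 9, 137605654 to 137615360, plus strand), whose product drives the budding of vesicles from the plasma membrane, had 39.9 and 69.7 CPM in RBM25_sh and 28.6 and 67.6 CPM in control_sh. Replicate 2 was the higher library in both groups, the groups overlapped, and the log2 fold change was 0.19 ± 0.42 with an interval of −0.76 to 1.14. It was −0.23 without RBM25_sh replicate 2 and −0.29 without control_sh replicate 1. ARRDC1 overlaps the antisense gene ARRDC1-AS1, which had 98 and 176 counts in RBM25_sh and 107 and 227 in control_sh. The strand setting of the counting is not given in the sources used here, so reads of such pairs cannot be told apart.

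ARRDC2 (chromosome 19, 18001132 to 18014102, plus strand), a less studied member of the family, had 17.7 and 25.2 CPM in RBM25_sh and 30.2 and 46.7 CPM in control_sh. The groups did not overlap, and both RBM25_sh libraries were lower. The log2 fold change was −0.84 ± 0.33 with an interval of −1.59 to −0.095, and the gene was not called. The log2 fold change of ARRDC2 was −1.11 without control_sh replicate 1 and −0.49 without control_sh replicate 2. The fitted interval of ARRDC4 (−4.11 to −2.70) did not reach those of ARRDC1, ARRDC2 or ARRDC3. Because ARRDC4 was already known for its large decrease in these libraries, this separation is a description only. The difference between these genes was not itself tested.

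**Figure D2:**
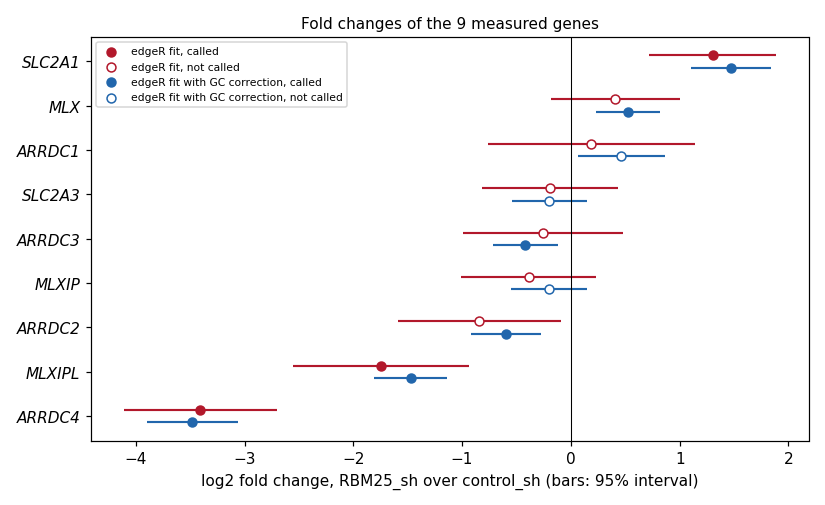
Log2 fold change of RBM25_sh over control_sh for the 9 genes measured, with 95% intervals, in the edgeR fit (red) and in the same fit after a GC correction (blue); filled points were called. ARRDC4 lies at −3.41, MLXIPL at −1.75 and SLC2A1 at 1.30 in the fit without correction, and all 3 are called in both fits.

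Among the transcription factor genes, MLXIPL was lower in RBM25_sh while MLXIP and MLX were not called. MLXIPL (ENSG00000009950, chromosome 7, 73593194 to 73624543, minus strand) encodes ChREBP, the form best known from liver, fat and intestine. It had 267 and 372 counts in RBM25_sh and 763 and 1640 counts in control_sh, which is 17.9 and 23.7 CPM against 48.3 and 91.5 CPM. Both RBM25_sh libraries lay below both control_sh libraries, and the control_sh libraries were themselves 1.90-fold apart, with replicate 2 higher. The mean was 20.8 ± 4.11 CPM in RBM25_sh and 69.9 ± 30.6 CPM in control_sh (SD, n = 2 each), and the log2 fold change was −1.75 ± 0.36, or 3.36-fold lower with an interval of 1.92 to 5.88. The call was lost without RBM25_sh replicate 1 (−1.54) and without RBM25_sh replicate 2 (−1.93). An intronic transcript on the same strand, AC005089.1, had 18 and 23 counts in RBM25_sh and 30 and 55 in control_sh.

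MLXIP (ENSG00000175727, chromosome 12, 122078722 to 122147347, plus strand), which encodes MondoA itself, had 81.3 and 108.6 CPM in RBM25_sh and 121.9 and 126.7 CPM in control_sh. Both RBM25_sh libraries were lower, and the gene was not called (log2 fold change −0.39 ± 0.28, interval −1.01 to 0.23). MLX (ENSG00000108788, chromosome 17, 42567068 to 42573239, plus strand), the shared partner of both factors, had 60.03 and 60.34 CPM in RBM25_sh and 43.3 and 47.5 CPM in control_sh. Both RBM25_sh libraries were higher, at a log2 fold change of 0.41 ± 0.27 with an interval of −0.19 to 1.002. Of the 50-base stretches of the longest MLX transcript, 26.6% also occur in transcripts of PSMC3IP, which overlaps it on the opposite strand, so the value of MLX is uncertain. PSMC3IP had 156 and 147 counts in RBM25_sh and 128 and 173 in control_sh.

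SLC2A1 was the only member called higher, and SLC2A3 was not called. SLC2A1 (ENSG00000117394, chromosome 1, 42925375 to 42959176, minus strand) had 14344 and 17317 counts in RBM25_sh and 6380 and 7761 counts in control_sh. In CPM this was 961 and 1103 in RBM25_sh against 404 and 433 in control_sh. Both RBM25_sh libraries were higher, and the ratios over the control_sh libraries were between 2.22 and 2.73. The mean was 1032 ± 100.6 CPM in RBM25_sh and 418 ± 20.8 CPM in control_sh (SD, n = 2 each), with a log2 fold change of 1.30 ± 0.26, or 2.47-fold higher with an interval of 1.65 to 3.69. Its call was lost without RBM25_sh replicate 1 (1.42) and without RBM25_sh replicate 2 (1.24), where the spread comes from the control_sh pair alone. The overlapping antisense gene SLC2A1-AS1 had few counts, 24 and 14 in RBM25_sh and 31 and 48 in control_sh.

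SLC2A3 (ENSG00000059804, chromosome 12, 7919230 to 7936275, minus strand) encodes GLUT3, a transporter of high affinity best known from neurons. It had 24.0 and 25.4 CPM in RBM25_sh and 29.7 and 26.7 CPM in control_sh. The libraries lay within a narrow range without overlap, and the log2 fold change was −0.19 ± 0.28 with an interval of −0.82 to 0.44. Of its 50-base stretches 21.5% occur in transcripts of other genes, mainly SLC2A14 and pseudogenes of SLC2A3. SLC2A14, a close paralog, was listed at 0 counts in all 4 libraries.

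Levels can be set between genes per length, in the deposited FPKM. The order depends on the listed gene length. For ARRDC4 it equals the longest GENCODE transcript (4072 bases), while for MLXIP it is longer (13905 against 8427 bases). SLC2A1 was the most abundant of the 10 in both groups, at 215 ± 13.5 FPKM in RBM25_sh and 85.1 ± 4.02 FPKM in control_sh. ARRDC4 was ninth of 10 in RBM25_sh, at 2.27 ± 0.61 FPKM, and stood second in control_sh, at 23.3 ± 1.05 FPKM. In RBM25_sh the order after SLC2A1 was ARRDC1 (14.1), MLX (13.9), ARRDC3 (10.8), MLXIP (6.71), ARRDC2 (4.55), MLXIPL (4.25), SLC2A3 (3.95), ARRDC4 and TXNIP, where ARRDC1 and MLX, ARRDC2 and MLXIPL, and MLXIPL and SLC2A3 overlapped as neighbours. In control_sh it was ARRDC4, MLXIPL (13.9), ARRDC3 (12.5), ARRDC1 (12.1), MLX (10.2), MLXIP (8.59), ARRDC2 (7.96), SLC2A3 (4.40) and TXNIP, and each neighbouring pair from MLXIPL to MLX, as well as MLXIP and ARRDC2, overlapped.

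The replicates of a group differed along GC content, and the members of highest and lowest GC content differed between replicates in the same sense as other genes of their GC content. Across 10378 genes the log2 ratio of replicate 2 to replicate 1 was correlated with transcript GC content (Spearman 0.84 in RBM25_sh and 0.82 in control_sh). This is a description across genes that share 2 libraries in each case. The log2 fold change of RBM25_sh over control_sh also ran along GC content, with a Spearman correlation of −0.31 over the same genes. The cause of either trend was not tested. ARRDC1, at 62.8% GC, was 1.75-fold higher in replicate 2 in RBM25_sh and 2.37-fold higher in control_sh. MLXIPL, at 63.5% GC, was 1.33-fold higher in replicate 2 in RBM25_sh and 1.90-fold higher in control_sh. ARRDC3, at 37.6% GC, lay at 0.737 and 0.594 of replicate 1 in RBM25_sh and control_sh. ARRDC4, at 43.4% GC, had ratios of 0.716 in RBM25_sh and 1.07 in control_sh, in opposite senses, and SLC2A1, at 54.8% GC, had 1.148 and 1.073.

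**Figure D3:**
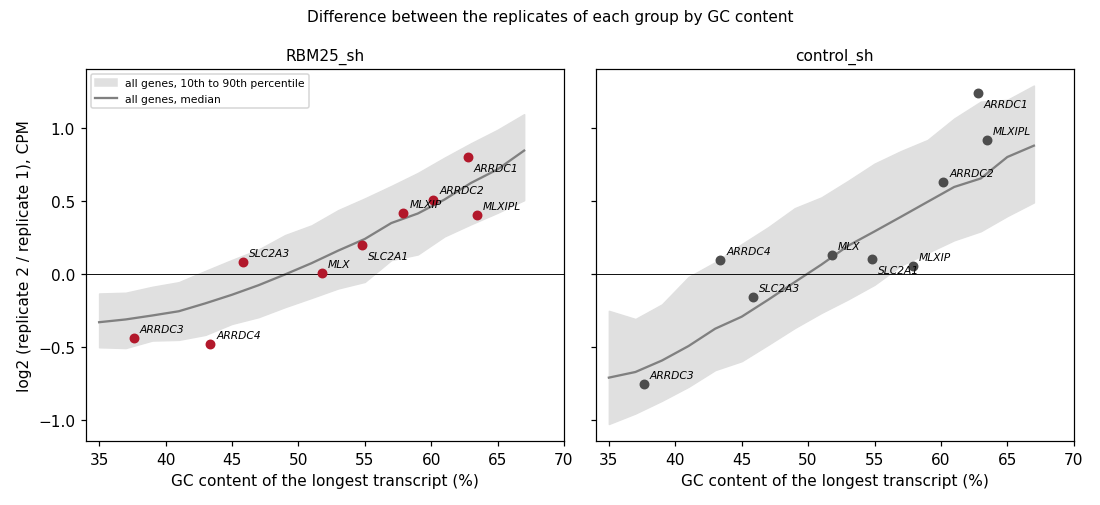
Log2 ratio of replicate 2 to replicate 1 in CPM against transcript GC content (percent), for RBM25_sh (left) and control_sh (right). The grey line and band are the median and the 10th to 90th percentile of all genes in bins of GC content, and the named points are the members: GC-rich ARRDC1 and MLXIPL sit above 0 and GC-poor ARRDC3 below 0 in both groups.

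With each library's smooth trend on GC content removed, the intervals narrowed and 6 of the 9 members were called, 2 higher and 4 lower, where 28.9% of all genes tested were called, 14.5% higher and 14.4% lower. This correction evened the split of calls over all genes, to 2328 higher and 2324 lower against 105 higher and 386 lower without it. The trends were fitted on these same libraries and take in any group difference that runs along GC content. Whether the more even split follows from the correction itself was not tested. The trends were also treated as known, so the intervals leave out their error. ARRDC4 was at −3.48 ± 0.19, MLXIPL at −1.47 ± 0.15 and SLC2A1 at 1.47 ± 0.16. ARRDC2 (−0.60 ± 0.14), ARRDC3 (−0.42 ± 0.13) and MLX (0.53 ± 0.13) were also called under the correction. MLXIP (−0.20 ± 0.16), SLC2A3 (−0.20 ± 0.15) and ARRDC1 (0.46 ± 0.18) were not called.

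The 6 lists of other pathway genes were chosen with earlier results of these data known, so their counts, medians and p-values are descriptions. Of the 71 genes in these lists, 61 were tested and 2 were called by edgeR, HKDC1 and SLC2A11. That is 3.28% of the 61, near the 3.05% of all genes tested. Both were lower in RBM25_sh and both were in the list of other glucose transporters and hexokinases. HKDC1 (chromosome 10, 69220303 to 69267559), a hexokinase family member, had 1.41 and 1.47 CPM in RBM25_sh against 6.45 and 10.7 CPM in control_sh (log2 fold change −2.57 ± 0.41, edgeR adjusted p = 0.0163). SLC2A11 (chromosome 22, 23856703 to 23886309), which encodes the transporter GLUT11, had 3.62 and 4.78 CPM in RBM25_sh against 10.7 and 16.7 CPM in control_sh, at −1.71 ± 0.36 (edgeR adjusted p = 0.0410). The call of SLC2A11 was lost without RBM25_sh replicate 1 (−1.50) and without RBM25_sh replicate 2 (−1.88). Both genes were low, at 23 counts or fewer for HKDC1 in each RBM25_sh library. SLC2A12, which encodes GLUT12, was at −1.75 ± 0.41 without passing (edgeR adjusted p = 0.0517). The list had 11 of 16 genes tested and a median log2 fold change of −0.67, against −0.04 over all genes tested. Of these 11, 4 lay above 0, the highest at 0.98, and 7 below. After the GC correction the median was −0.54. In that fit 7 of the 11 were called, 2 higher and 5 lower, beside 28.9% of all genes tested.

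Of 15 other known target genes of MondoA and ChREBP, 13 were tested and none was called by edgeR. Of these 13, 5 lay above 0 and 8 below, and the median was −0.11. HK2, the hexokinase that traps glucose as its phosphate, had 58.3 and 54.7 CPM in RBM25_sh against 112.0 and 109.6 CPM in control_sh. The groups were well apart, at −0.97 ± 0.26, without passing the threshold (edgeR adjusted p = 0.0788), and HK2 was called after the GC correction (−0.87 ± 0.13, edgeR adjusted p = 0.00208). KHK, the fructose-phosphorylating ketohexokinase, was at −1.02 ± 0.37 (edgeR adjusted p = 0.153) and RGS16, a regulator of G protein signalling, at −0.91 ± 0.34 (edgeR adjusted p = 0.159). After the correction 6 of the 13 were called, 2 higher and 4 lower, beside 28.9% of all genes tested.

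The factors that share MAX or MLX as partners had a median of −0.27, with none of 9 tested called. MYCL was at −0.9997 ± 0.32 (edgeR adjusted p = 0.120), MYC at −0.70 ± 0.27 (edgeR adjusted p = 0.177) and MXD3, a repressor of the same network, at −0.59 ± 0.40 (edgeR adjusted p = 0.429). Without control_sh replicate 2 MXD3 was at 0.051. After the GC correction 2 of the 9, MYC and MYCL, were called lower, beside 14.4% of all genes.

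None of the 11 tested arrestins and NEDD4-family ubiquitin ligases, with which alpha-arrestins work, was called, and their median was 0.04. ARRB2, which encodes beta-arrestin 2, was at −0.89 ± 0.28 (edgeR adjusted p = 0.119), the ligase gene HECW1 at −0.98 ± 0.33 (edgeR adjusted p = 0.134) and NEDD4 at −0.76 ± 0.34 (edgeR adjusted p = 0.236). The remaining alpha-arrestin, ARRDC5, had 0 and 0 counts in RBM25_sh and 3 and 0 in control_sh. After the correction 4 of the 11 were called, all lower, in a fit that called 28.9% of all genes and 14.4% of them lower.

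In the thioredoxin system, whose main protein TXNIP binds, none of 10 genes was called and the median was 0.05. TXNRD1, the cytosolic thioredoxin reductase, had 578 and 526 CPM in RBM25_sh against 1145 and 934 CPM in control_sh (−0.91 ± 0.26, edgeR adjusted p = 0.0904). PRDX3, a mitochondrial peroxiredoxin, was at 0.63 ± 0.28 (edgeR adjusted p = 0.226). PRDX5 was at −1.15 ± 0.55 (edgeR adjusted p = 0.264) and at 0.17 without control_sh replicate 2, a library in which it had 250 CPM against 62.7 CPM in control_sh replicate 1. After the correction 3 of the 10 were called higher and 1 lower, beside 14.5% and 14.4% of all genes.

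The last list held the subunits of AMPK, the energy-sensing kinase that phosphorylates TXNIP, and STK11, which encodes its activating kinase LKB1. None of its 7 tested genes was called, and their median was 0.35. PRKAB1, a beta subunit, had 41.1 and 43.0 CPM in RBM25_sh against 19.1 and 24.7 CPM in control_sh (0.94 ± 0.29, edgeR adjusted p = 0.108). PRKAG2 was at 0.67 ± 0.29 (edgeR adjusted p = 0.223) and PRKAA2 at 0.55 ± 0.35 (edgeR adjusted p = 0.408). After the correction 2 of the 7, PRKAB1 and PRKAG2, were called higher, beside 14.5% of all genes. Over the 6 lists together the correction called 25 of the 61 genes, 9 higher and 16 lower, against 28.9% of all genes tested, 14.5% higher and 14.4% lower.

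**Figure D4:**
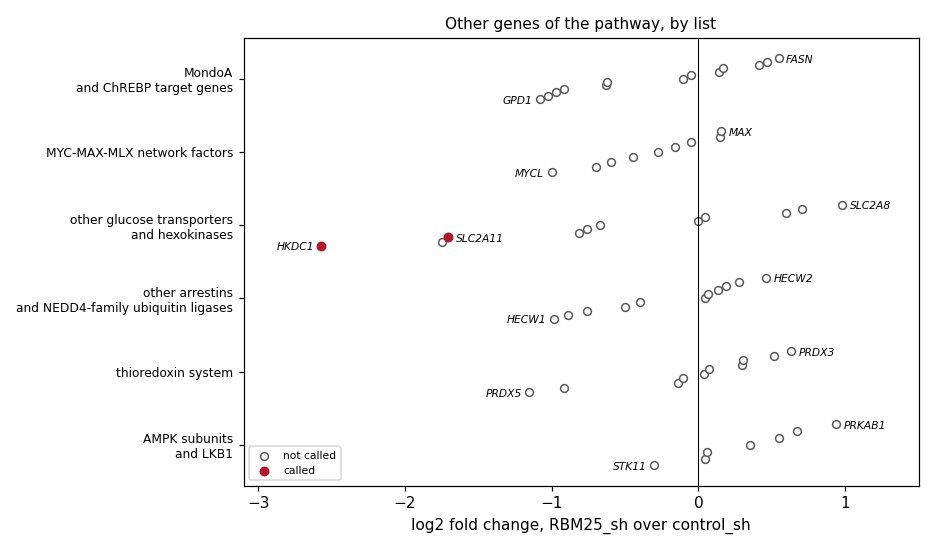
Log2 fold change of RBM25_sh over control_sh for the 61 tested genes of the 6 pathway lists, 1 row of points per list, with the lowest, the highest and the called genes named. The only called genes, HKDC1 at −2.57 and SLC2A11 at −1.71, are in the list of other glucose transporters and hexokinases.

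The genes whose pattern over the 4 libraries lay nearest to that of ARRDC4 were LURAP1L, RPE65, GRAMD1B, MR1 and BFSP1. Likeness was the Euclidean distance between log2 CPM values, each gene centred on its own mean, among 10085 protein-coding genes with an average log2 CPM of at least 3. The distances were 0.54 for LURAP1L and RPE65, 0.56 for GRAMD1B and 0.59 for MR1 and BFSP1. All 5 were lower in RBM25_sh, with log2 fold changes of −3.94 for LURAP1L, −3.03 for RPE65, −3.43 for GRAMD1B, −2.93 for MR1 and −2.94 for BFSP1. With 4 libraries in 2 groups the distance mostly ranks genes by the size of their group difference. No such genes are given for TXNIP, which did not enter the fit.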

How the data were processed

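The 4 libraries were grouped by their titles. Deposited counts per gene were whole numbers, and the deposited FPKM equal them per listed gene length with 1 factor per library. Per the submitters' processing notes the tools were Cuffdiff 2.1.1, Cufflinks 2.1.1, TopHat2 2.0.9 and Bowtie2 2.0.6. How reads were counted, and whether by strand, is not given in the sources used here. All 58735 gene positions equal those of GENCODE 29 (GRCh38).

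Counts were fitted with edgeR 4.0.16 in R 4.3.3 (filterByExpr, TMM, quasi-likelihood F test on group, two-sided, 2 residual degrees of freedom, Benjamini-Hochberg over 16091 genes, threshold 0.05). The SE is the log2 fold change divided by the square root of F. Libraries of a group differed beyond counting noise, with chi-square per degree of freedom of 26.4 in RBM25_sh and 70.9 in control_sh. The edgeR fit, alone, with a block on replicate number or with the GC correction, was tested on simulated counts, as were voom and DESeq2. The simulated counts had known changes, no GC trend or replicate effect, and less spread between libraries than the real counts. The other alternatives, the FPKM fits among them, were not tested in this way. GC correction used lowess trends (span 0.3) on the longest transcript as offsets. Promoters came from RefSeq (GRCh38.p14), and 9 members matched.

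Members and lists were chosen with earlier results of these data known. Text names RBM25, all members, the 3 smallest p-values and every call in each list, and the 5 genes nearest to ARRDC4. Alternatives were other scalings, no filter, DESeq2 1.42.0, limma 3.58.1 (voom, and log2 of FPKM plus 1 or plus 0.1), the GC correction, a block on replicate number and leaving out each library. Figures used matplotlib 3.10.9.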

Additional observations from a re-analysis of the deposited data

How the results depend on the processing

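The count of genes called, 491 by edgeR, was 1438 with no filter, 996 with the DESeq2 Wald test, 215 and 268 with limma on log2(FPKM + 1) and log2(FPKM + 0.1), and 4652 with the GC correction. It ranged from 204 to 2389 without 1 library. The replicate numbers are shared by the groups, and same-numbered libraries deviated together (correlation 0.47 across genes, with 2 pairs only), but no label says that a number marks a shared batch. With the replicate block 5722 genes were called, or 35.6%, and 6440 with the replicate block with GC correction, or 40.02%. The members called, 3 of 9, were 1 with either FPKM setting (ARRDC4), 6 with the GC correction, 5 with the replicate block and 7 with both, and from 1 to 4 without 1 library. The pathway genes called, 2 of 61, were 3 with library totals, 6 with no filter, 6 with DESeq2, 1 with voom, 0 and 1 with the FPKM pseudocounts of 1 and 0.1, 25 with the GC correction, 29 with the replicate block and 28 with both, and from 1 to 10 without 1 library. The pathway genes tested were 67 with no filter and with DESeq2, and 61 or 63 without 1 library. Of all genes tested, 4.65% were called with no filter and 3.22% with DESeq2, against 3.05% by edgeR. In each setting where the count of pathway genes called rose, the share of all genes called rose too. These rises are therefore not read as changes particular to the pathway genes. Scaling by library totals moved the median of all genes by −0.11. Direction turned only without 1 library among the named genes and alternatives: ARRDC3 ranged from −0.58 to 0.18, ARRDC1 from −0.29 to 0.94, MXD3 from −1.03 to 0.051 and PRDX5 from −1.82 to 0.17, none of them called by the edgeR fit of all 4 libraries. The cause of these shifts was not tested. Of 462 values for 33 named genes under the alternatives, 368 kept direction and side of the threshold, 17 lost a call, 72 gained one and 5 turned. Depth does not allow a statement on TXNIP beyond its limit of 3 counts.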
